A study of Mus musculus with 1920 samples.

Results

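The genes described here are 10 genes of the mucus and the secretory granules of goblet cells. They were chosen by name and by no rule on their values, though earlier results of these data were known. All 10 were found among the 55471 genes of the raw count matrix. They comprise 7 granule and mucus genes (Muc2, Fcgbp, Clca1, Zg16, Tff3, Agr2 and Spink4), the 2 surface mucins Muc4 and Muc13, and the transcription factor Klf4. They were followed in single cells that had been sorted, by high GFP from the Lgr5 locus, from small-intestinal crypts of B6.129P2-Lgr5tm1(cre/ERT2)Cle/J mice, a strain shared by all animals, of which 3 were young and 4 were aged (labelled Old, with no age in weeks). Each cell was a full-length SMART-type library without molecular identifiers, and of 1920 cells the 1836 in which 1000 or more genes were detected entered, 906 from young and 930 from aged mice.

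Kept cells held a median of 305492 reads (1695 to 1733912), and the median per mouse ranged from 211789.5 to 344567.5 reads over 160 to 376 cells. Of kept cells 96.9% had at least 1 read of Lgr5, the receptor that marks cycling stem cells of the crypt base. Sorted populations can hold other cells, so each cell was also assigned to the fixed marker list with the highest mean level, and none of these lists contains a member. Intestinal stem cell (ISC) markers led in 1553 cells, Paneth markers in 150, enterocyte markers in 104, tuft markers in 19 and goblet markers in 4. A read of Lgr5 was found in 98.5% of the cells led by ISC, 92.7% by Paneth and 81.7% by enterocyte markers. A single read therefore does not tell these cells apart. The lists were not scaled against each other, so a list of abundant genes leads more easily than a list of scarce ones.

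Goblet cells are secretory cells of the intestinal epithelium that release a hydrated mucus gel from apical granules. The gel is built from the mucin MUC2, which is folded and linked in the endoplasmic reticulum, heavily glycosylated in the Golgi, packed in granules and joined outside the cell by other granule proteins. Surface mucins are a separate class, anchored in the apical membrane and made by many epithelial cells, and goblet and Paneth cells both arise from secretory progenitors that need the transcription factor Atoh1.

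The promoters of the members were examined as a background to their co-expression, since members that move together may share letters upstream of the start. RefSeq entries (GRCm38.p6) were matched for 6 of the 10 members, and the 250 bases before the annotated start of 4 of them are printed 5′ to 3′ on the gene's strand, all of them on the plus strand. Muc2, Fcgbp and Agr2 are granule genes whose levels moved together across cells, and Muc4 is the surface mucin that went the other way. Capitals mark matches to any of 8 short motifs searched on both strands, at chr7:141690090-141690339 for Muc2, chr7:28070986-28071235 for Fcgbp, chr12:35992675-35992924 for Agr2 and chr16:32735636-32735885 for Muc4.
Muc2: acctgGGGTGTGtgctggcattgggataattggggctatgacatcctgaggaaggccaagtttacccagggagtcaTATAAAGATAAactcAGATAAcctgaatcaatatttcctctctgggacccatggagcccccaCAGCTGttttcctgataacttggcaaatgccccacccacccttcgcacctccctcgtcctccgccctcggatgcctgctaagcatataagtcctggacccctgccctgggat
Fcgbp: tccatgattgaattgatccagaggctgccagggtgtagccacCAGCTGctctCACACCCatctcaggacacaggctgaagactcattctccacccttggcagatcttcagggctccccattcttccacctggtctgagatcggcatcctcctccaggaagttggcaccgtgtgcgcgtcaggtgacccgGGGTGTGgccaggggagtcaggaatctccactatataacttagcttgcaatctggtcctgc
Agr2: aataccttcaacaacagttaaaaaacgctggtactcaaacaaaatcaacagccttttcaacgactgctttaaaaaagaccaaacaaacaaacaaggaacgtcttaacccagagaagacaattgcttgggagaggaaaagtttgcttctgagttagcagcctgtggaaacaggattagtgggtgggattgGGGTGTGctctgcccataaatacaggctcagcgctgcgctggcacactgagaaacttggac
Muc4: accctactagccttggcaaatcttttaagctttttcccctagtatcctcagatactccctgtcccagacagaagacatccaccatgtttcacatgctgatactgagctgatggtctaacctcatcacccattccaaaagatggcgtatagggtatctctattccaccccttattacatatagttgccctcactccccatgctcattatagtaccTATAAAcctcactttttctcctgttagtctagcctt

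The motif GGGTGTG, a letter run of the kind bound by Krüppel-like factors, was found in Muc2, Agr2 and Fcgbp, with 2 matches in Fcgbp, and in 6.93% of the 32851 promoters searched. The E-box CAGCTG, of the kind bound by basic helix-loop-helix factors, was found in Muc2, Fcgbp and Klf4 and in 13.0% of all promoters. TATAAA was found in Muc2 and Muc4 (12.4% of promoters) and AGATAA 2 times in Muc2 (9.99%), where the first AGATAA shares a base with the TATAAA match. ACGTGG was found in Klf4 (6.91%). CCGGAA (12.0%), TGTTTAC (3.17%) and CAAAGTCCA (0.384%) were found in none of the 6 members. A match is a description of these letters and does not show that a factor was bound.

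Levels were compared between genes per kilobase of annotated exon, from reads summed over the cells of a mouse and scaled to CPM, which sets the reads of a gene against all reads of that mouse. The order, as mean CPM per kilobase ± SD over 7 mice, began with the secreted peptides Spink4 (511 ± 290) and Tff3 (271 ± 128), followed by Muc13 (211 ± 61.2), Agr2 (126 ± 53.3), Zg16 (94.3 ± 92.1), Muc2 (50.1 ± 45.3), Muc4 (31.6 ± 6.53), Fcgbp (20.6 ± 16.9), Clca1 (13.2 ± 19.2) and Klf4 (2.21 ± 0.952). Neighbours in this order overlapped in their ranges over mice in every case. Spink4 lay above Tff3 within 7 of 7 mice, while the other neighbouring pairs kept their order in 4 to 6 mice. The spread was not alike among members: the SD was larger than the mean for Clca1 and close to it for Zg16, Muc2 and Fcgbp, and much smaller for Muc4 and Muc13. In the counting, Muc4 shares 627 exon bases with the antisense gene Muc20 and Muc13 shares 184 with the antisense gene Gm15657, and since no source used here gives the strand setting of the counting, reads of these bases cannot be told apart. Muc20 had 4614 reads against 249996 for Muc4, and Gm15657 had 21217 against 405205 for Muc13.

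The members fell into a broad and a concentrated set when the cells that carried them were counted. Muc4 and Muc13, which form the glycocalyx of the apical membrane, reached 10 CPM in 1775 and 1814 of the 1836 cells. Agr2 (975 cells), a protein disulfide isomerase needed for MUC2 folding, and Spink4 (848 cells), a small Kazal-type peptide, were at 10 CPM in many cells. Tff3 (393 cells), a trefoil peptide of the mucus, Muc2 (389 cells), the gel-forming mucin, Klf4 (357 cells), a zinc-finger factor of goblet cell maturation, and Fcgbp (322 cells), a mucus-linked protein of von Willebrand domains, were in fewer. Zg16 (127 cells), a lectin-like granule protein that binds bacterial surfaces, and Clca1 (93 cells), a secreted metalloprotease of the mucus, were the scarcest.

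Reads of the granule genes sat in few cells, and for Clca1 and Zg16 almost all of them did. The 10 cells with most reads of a gene held 95.1% of its reads for Clca1, 88.5% for Zg16, 57.5% for Fcgbp, 54.0% for Muc2, 31.3% for Agr2, 30.6% for Tff3 and 27.6% for Spink4. The same share was 14.8% for Klf4, 4.46% for Muc13 and 2.59% for Muc4. The most extreme cell came from aged mouse 4, was led by goblet markers, had 656961 reads and no read of Lgr5, and spent 28.4% of its reads on the 7 granule genes. Muc2 alone took 65831 reads, or 10.0% of that cell, and the cell held 57.2% of all Clca1 reads of the series. Of the 10 cells with most granule reads, which together held 42.8% of them, 7 came from aged mice (5 of these from aged mouse 4), 9 had a read of Lgr5, and 3 were led by Paneth, 3 by enterocyte, 2 by goblet and 2 by ISC markers. Reads summed over a mouse therefore rest, for these genes, on a handful of libraries.

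**Figure D1:**
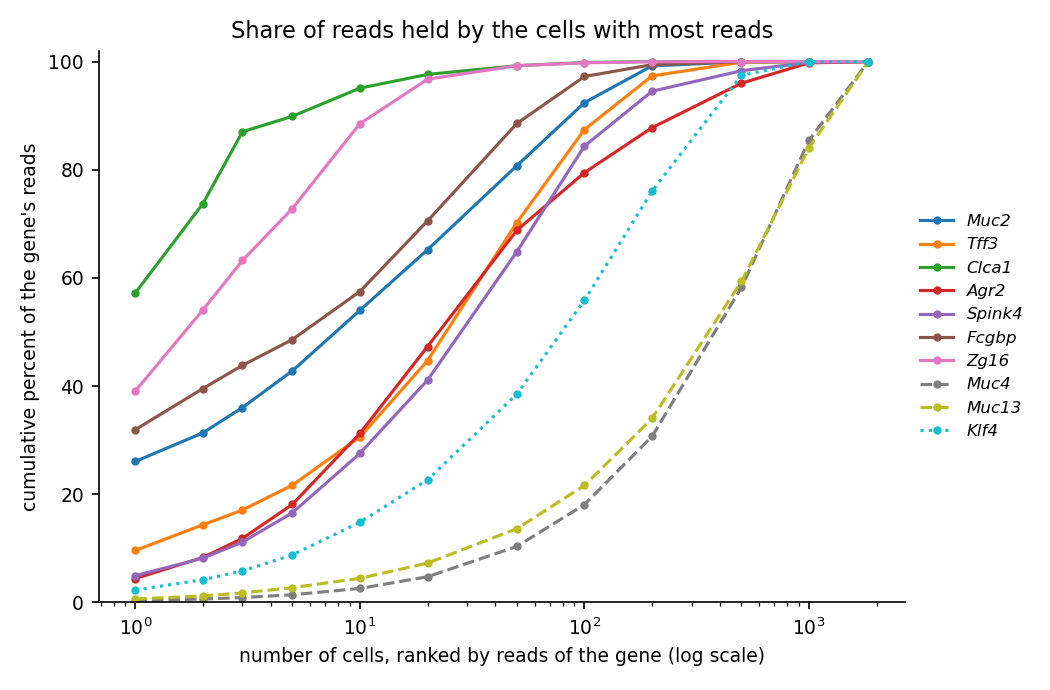
Cumulative percent of a gene's reads (y axis) held by its cells ranked by their reads of that gene (x axis, number of cells, log scale), over the 1836 kept cells; granule genes are solid lines, surface mucins dashed, Klf4 dotted, and points mark the ranks computed. Clca1 reaches 95.1% and Zg16 88.5% with 10 cells, whereas Muc13 and Muc4 reach 4.46% and 2.59%.

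Within a mouse, the granule genes rose and fell together across cells and the surface mucins did not follow them. Over the 21 pairs of granule genes, the Pearson correlation of log2(CPM + 1) across cells, computed within each mouse and averaged over 7 mice, had a median of 0.45 and ranged from 0.20 to 0.72. The highest value was that of Muc2 with Tff3 (0.72, and 0.67 to 0.77 over the single mice). Muc2 with Spink4 (0.69), Tff3 with Fcgbp (0.68) and Clca1 with Zg16 (0.65) came next. Clca1 and Zg16 shared 51 cells at 10 CPM, which are 54.8% of the Clca1 cells and 40.2% of the Zg16 cells. Muc4 had a correlation between -0.22 and -0.03 with the granule genes (median -0.13), Muc13 between 0.04 and 0.14 (median 0.09) and Klf4 between 0.24 and 0.38 (median 0.30). Muc4 and Muc13 had a correlation of 0.34 with each other. Spearman correlation gave lower values for this pair (0.10), for Muc2 with Tff3 (0.48) and for Clca1 with Zg16 (0.38). Cells of a mouse share their sort, plates and depth, so these values describe the cells and carry no p.

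**Figure D2:**
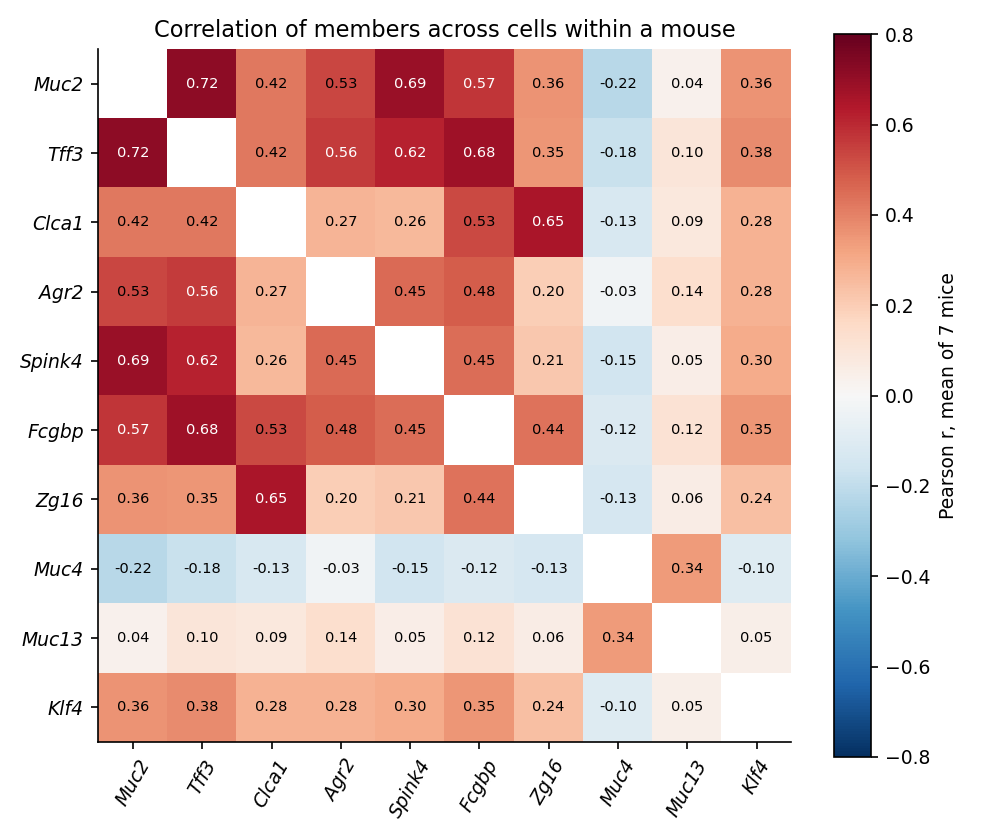
Pearson correlation of log2(CPM + 1) between members across the cells of a mouse, averaged over 7 mice; rows and columns are the 10 members and the colour scale runs from -0.8 to 0.8. The 7 granule genes form a block of positive values from 0.20 to 0.72, Klf4 joins it at 0.24 to 0.38, and Muc4 is negative with all 7.

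Genes outside the set that resembled the granule genes most included known goblet and secretory progenitor genes. Among 17030 genes with a read in at least 5% of cells, the mean level of the 7 granule genes correlated best with Sytl2 (0.78), a synaptotagmin-like protein of granule exocytosis, Guca2a (0.73), which encodes guanylin, and Spdef (0.71), a goblet cell transcription factor. Tpsg1 (0.68), Hpd (0.68), Atoh1 (0.68), Ramp1 (0.67), Ccl9 (0.66), Ano7 (0.66) and Rep15 (0.65) followed, and 5 of these 10 genes were also among the first 10 by Spearman correlation. Members differed in their nearest genes. Sytl2 was among the 3 nearest of Muc2, Tff3, Agr2 and Spink4, while Clca1 and Zg16 were each other's nearest gene and both had Pmp22, a peripheral myelin protein, among their 3. Muc4 was nearest to Hnf4a (0.58), a transcription factor of the intestinal epithelium, and Muc13 to Pigr (0.56), the receptor that carries IgA across the epithelium, and Epcam (0.55), an epithelial adhesion molecule. Klf4 was nearest to Ano7 (0.45).

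How many of the 7 granule genes a cell carried at 10 CPM divided the cells unevenly. None was at 10 CPM in 416 cells, 1 in 636, 2 in 383 and 3 in 130. A further 107 cells carried 4, 92 carried 5, 37 carried 6 and 35 carried all 7. The median Lgr5 level was 301 to 355 CPM in cells with 0 to 3 granule genes, 114 to 146 CPM in cells with 4 to 6, and 41.7 CPM in cells with 7. Lyz1, the lysozyme of Paneth cell granules, had a median of 52.6 to 131 CPM in cells with 0 to 3 granule genes, 3603 and 7206 CPM in cells with 4 and 5, and 116 and 161 CPM in cells with 6 and 7. The share of cells with Klf4 at 10 CPM was 9.38% with no granule gene and 88.6% with all 7. Of the 35 cells with all 7, enterocyte markers led in 23, Paneth markers in 9, ISC markers in 2 and goblet markers in 1. These medians describe the cells, since the granule genes defined the steps.

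The 271 cells with at least 4 granule genes were 14.8% of kept cells, and 93.7% of them had a read of Lgr5. They held a median of 241528 reads, fewer than the 316202 of the other cells. Paneth markers led in 46.1% of them, ISC markers in 33.9% and enterocyte markers in 18.1%. Of all cells led by Paneth markers 83.3% belonged to this set, against 47.1% of those led by enterocyte markers, 5.92% of those led by ISC markers and 0 of 19 led by tuft markers. No doublet caller was run, and the part of wells with more than 1 cell in these counts was not tested.

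Members that the count of granule genes did not use were then compared between cells with at least 4 and cells with fewer, on reads summed per mouse (edgeR's quasi-likelihood test with the mouse as a block, Benjamini-Hochberg adjustment over 17777 genes, 5.93% of which were called higher and 1.99% lower). Klf4 rose and Muc13 rose slightly in the cells with granule genes, and Muc4 did not pass the test. Klf4 was at 26.2, 14.5 and 22.0 CPM in these cells of young mice 1 to 3 and 22.6, 31.2, 13.2 and 23.7 CPM in those of aged mice 1 to 4, against 3.34 to 7.59 CPM in the other cells. No value of the first set fell within the range of the second, and the log2 fold change was 2.71 (SE 0.21, adjusted p = 5.38e-06).

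Muc13 was at 681 ± 114 CPM (SD, n = 7 mice) in cells with at least 4 granule genes and at 628 ± 199 CPM in the others, higher in 5 of 7 mice, and its log2 fold change was 0.56 (SE 0.09, adjusted p = 0.00169). On plain CPM the median log2 ratio of all genes was -0.37 and that of Muc13 was 0.12, so its change is relative to other genes. Restricted to cells led by ISC markers, Muc13 gave 0.49 and no longer passed (adjusted p = 0.0723). Muc4 was at 254 ± 66.4 CPM against 390 ± 76.9 CPM, lower in 7 of 7 mice, but relative to other genes its log2 fold change was -0.23 (adjusted p = 0.139), and it was 0.11 among cells led by ISC markers. Lgr5 fell (-0.63, adjusted p = 0.00273) and Lyz1 rose (6.96, adjusted p = 3.78e-09) with the granule genes. All 11 Paneth markers tested rose, with a summed level of 85127 to 236954 CPM over the mice against 663 to 1425 CPM in the other cells, as did 10 of 12 enterocyte markers, while 13 of 20 ISC markers fell and none of these lists was at 0. Their part in the values of Klf4 and Muc13 was not tested.

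Other genes of mucus production, from a list of 51 that holds no member, changed in the same comparison. Of 43 tested, 30 rose and 1 fell, Agr3, a relative of Agr2 (-0.65). Among 10 regulators of secretory fate 8 rose, with Spdef at 7.85 and Atoh1 at 5.46 on the log2 scale, while Foxa2 (0.29) and Foxa3 (0.33) did not pass. Among 12 mucin glycosylation genes 9 rose, led by Gcnt3 (4.08), a branching enzyme of mucin glycans. Among 11 folding and secretion genes 9 rose, from Capn9 (10.61) and Tpsg1 (9.49) to Xbp1 (0.90), a factor of the unfolded protein response, while Stxbp2 (0.01) and Vamp8 (0.18) did not pass. Among 10 other mucins, trefoil factors and granule genes 4 rose, including Reg4 (6.85) and Guca2a (6.09). The median over the 43 genes was 1.33, beside -0.07 over all genes tested. When only cells led by ISC markers entered, 17 of the list were called, and the share of all genes called there was not counted.

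Cells led by Paneth markers carried more of 6 members than cells led by ISC markers, in the same kind of fit (14578 genes, 5.76% called higher and 1.23% lower). Spink4 ranged from 1439 to 3411 CPM (median 2743) in the Paneth-led cells of 7 mice and from 17.0 to 102 CPM (median 47.2) in the ISC-led cells. Its ranges lay far apart, with a log2 fold change of 6.41 (SE 0.73, adjusted p = 6.11e-06), and Paneth-led cells held 70.0% of all Spink4 reads. Muc2 ranged from 1177 to 5027 CPM (median 1497) in Paneth-led and from 4.54 to 258 CPM (median 68.5) in ISC-led cells, a log2 fold change of 5.38 (SE 0.81, adjusted p = 0.000154). Muc2 reached 10 CPM in 88.0% of Paneth-led and 12.4% of ISC-led cells.

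Tff3 (3.33), Agr2 (2.96), Klf4 (2.90) and Zg16 (3.96, adjusted p = 0.0446) also rose in Paneth-led cells on the log2 scale. The call of Zg16 was lost in 7 of its 12 alternatives, and in young mouse 3 no Zg16 read was found in a Paneth-led cell. Clca1 (3.01, adjusted p = 0.0611), Fcgbp (1.84, adjusted p = 0.0988), Muc13 (0.54, adjusted p = 0.0533) and Muc4 (-0.51, adjusted p = 0.112) did not pass. The surface mucins depend on the scaling: on plain CPM the median gene lay at -0.88 and Muc13 turned to -0.40 and Muc4 to -1.44, and with edgeR's RLE scaling Muc13 passed at 0.61 (adjusted p = 0.0334). The Lyz1 level, which belongs to the marker list, differed by 8.82.

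Cells led by enterocyte markers differed from ISC-led cells in all 10 members, where 12.8% of genes were called higher and 6.00% lower. This contrast was added after the data had been seen and has sums of at least 5 cells in 6 mice. Zg16 ranged from 180 to 6969 CPM (median 1824) in enterocyte-led cells and from 0.540 to 3.62 CPM in the ISC-led cells of the same mice, with a log2 fold change of 9.94 (SE 1.24, adjusted p = 7.93e-06). Clca1 ranged from 22.8 to 3988 CPM against 0.277 to 3.04 CPM, a log2 fold change of 8.61 (SE 1.02, adjusted p = 4.26e-06). Both genes were apart in every mouse, and enterocyte-led cells held 55.9% of Zg16 and 40.0% of Clca1 reads while ISC-led cells held 1.11% and 1.63%. These reads were not spread over all enterocyte-led cells: 49.0% of them reached 10 CPM of Zg16 (median 9.17 CPM) and 33.7% of Clca1 (median 0 CPM). In young mouse 3, 2 of the 10 enterocyte-led cells spent 12.9% and 14.3% of their reads on the 7 granule genes. What kind of cell these were was not tested.

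Fcgbp (4.70), Muc2 (4.61), Tff3 (3.68), Klf4 (3.20), Spink4 (3.16), Agr2 (2.03) and Muc13 (0.86) rose in enterocyte-led cells, and Muc4 fell (-0.73, adjusted p = 0.0148). The level was uneven among mice, and Muc2 in enterocyte-led cells ranged from 79.0 to 6513 CPM. In aged mouse 3 several of these genes went the other way: Fcgbp was at 68.5 CPM in enterocyte-led and 207 CPM in ISC-led cells, Tff3 at 49.0 and 98.7, Spink4 at 27.7 and 79.6 and Agr2 at 32.8 and 177 CPM, while Muc2 was at 79.0 CPM in both. The call of Agr2 was lost without young mouse 1 (1.29, adjusted p = 0.132), young mouse 3 (2.11, 0.0709), aged mouse 1 (2.09, 0.0536) or aged mouse 2 (1.67, 0.145), and that of Muc4 without young mouse 3 (-0.60, 0.0663). The enterocyte-led sums of young mice 1 and 3 rested on few cells for several members. In young mouse 1, 1 of the 6 enterocyte-led cells held 3475 of their 3533 Agr2 reads and 4587 of their 4628 Spink4 reads. The same cell held 3951 of their 4148 Fcgbp and 2986 of their 3197 Muc2 reads. In young mouse 3, 1 of the 10 enterocyte-led cells held 13352 of 21131 Muc2 and 11696 of 19238 Fcgbp reads. The Paneth and enterocyte contrasts share the ISC-led cells, so only their own values are given. Of the wider list, 25 of 39 genes tested rose in Paneth-led cells, and 16 rose and 2 fell in enterocyte-led cells, with medians of 1.28 and 0.79 beside -0.07 and -0.05 over all genes.

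**Figure D3:**
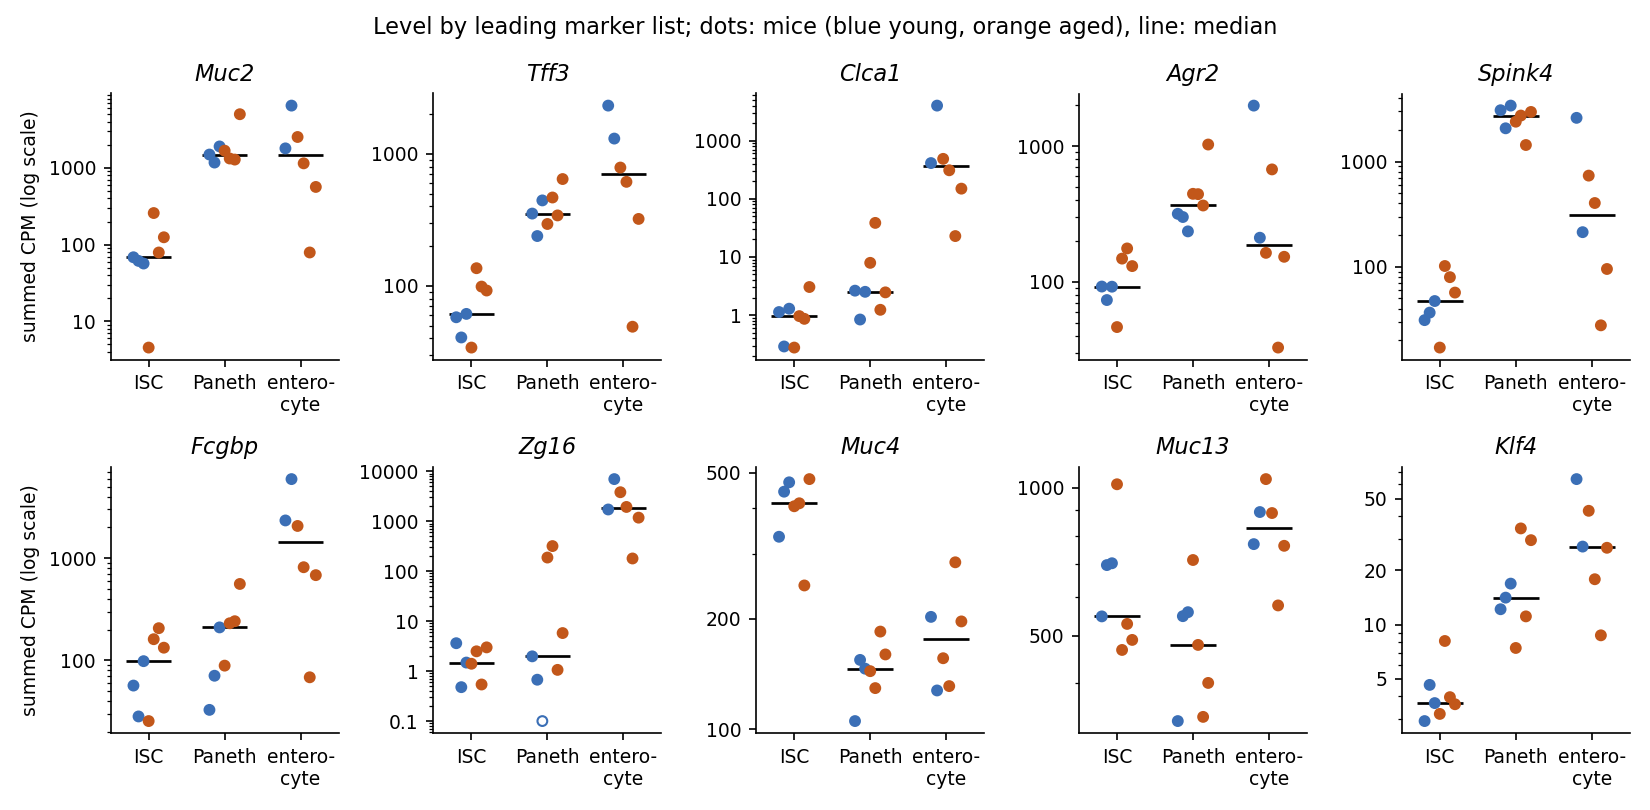
Summed level of each member (CPM, log scale) in cells led by ISC, Paneth or enterocyte markers; each dot is a mouse (blue young, orange aged, only sums of at least 5 cells) and lines are medians. Spink4 is at 1439 CPM or more in all Paneth-led sums, Zg16 at 180 CPM or more in all enterocyte-led sums, and the open dot is a Zg16 sum of 0 drawn at the foot of its axis.

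The 4 cells led by goblet markers, 1 each from young mouse 3 and aged mice 1, 3 and 4, were too few for sums per mouse and were not tested. All 4 carried at least 4 granule genes, and together they held 57.3% of Clca1, 39.2% of Zg16, 35.7% of Fcgbp and 29.8% of Muc2 reads. The single cell of aged mouse 4 accounted for most of this, with 57.2% of Clca1, 39.1% of Zg16, 31.9% of Fcgbp and 26.1% of Muc2 reads. In the 19 tuft-led cells, which served as a background for the share of cells with a member, Spink4 reached 10 CPM in 21.1% and Agr2 in 31.6%, against 41.4% and 49.3% of ISC-led cells. Median depth was 355505 reads in tuft-led and 319378 in ISC-led cells. Klf4 was at 10 CPM in 68.4% of tuft-led and 12.9% of ISC-led cells.

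ISC-led cells, 84.6% of all cells, held most reads of 4 members, with 94.9% for Muc4, 89.0% for Muc13, 59.3% for Agr2 and 56.4% for Klf4. They held 47.8% of Tff3 reads and 34.8% of Fcgbp reads. Across cells, Muc4 had a correlation of 0.56 with the mean level of the ISC markers, and Muc13 of 0.26. Muc2 (0.79), Tff3 (0.77), Spink4 (0.67), Agr2 (0.62) and Fcgbp (0.62) correlated best with the goblet marker list among the lists compared. The Paneth list came close for Spink4 (0.63) and reached 0.62 for Muc2. Zg16 (0.50 against 0.31) and Clca1 (0.42 against 0.40) correlated more with the enterocyte than with the goblet list.

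Lgr5 itself divided the members in the same mice. Cells with an Lgr5 level at or above the median of their mouse (919 cells) were compared with cells below it (917 cells), a split added after the data had been seen, with 3.42% of 18274 genes called higher and 5.25% lower. All 7 granule genes fell in the cells with more Lgr5 and Muc4 rose, so 8 members were called. Zg16 was at 4.72, 0.575 and 1.69 CPM in the high cells of young mice 1 to 3 and at 1.41, 2.96, 0.225 and 3.61 CPM in those of aged mice 1 to 4. In the low cells it was at 103, 3.68 and 327 CPM in young and 143, 369, 19.9 and 772 CPM in aged mice. The low cells were higher in 7 of 7 mice, with a log2 fold change of -6.43 (SE 0.62, adjusted p = 0.000984).

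Muc2 was at 2.83, 16.5 and 4.97 CPM in the high cells of young mice and 68.3, 19.6, 254 and 326 CPM in those of aged mice. In the low cells Muc2 was at 353, 213 and 528 CPM in young and 260, 1007, 181 and 2004 CPM in aged mice. It was lower in the high cells of 6 mice and higher in aged mouse 3, with a log2 fold change of -4.03 (SE 0.94, adjusted p = 0.0281). The call of Muc2 was lost in 5 of its 11 alternatives, among ISC-led cells and without young mouse 1, 2 or 3 or aged mouse 2, with an adjusted p of up to 0.0808 (edgeR). Tff3, Fcgbp and Spink4 also went the other way in aged mouse 3, where Spink4 was at 202.3 against 202.1 CPM. The log2 fold change was -6.03 for Clca1, -3.88 for Fcgbp, -3.16 for Tff3, -3.03 for Spink4 and -1.92 for Agr2, all past the test. Over the 10 members the median was -3.09, beside 0.02 over all genes tested.

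Muc4 moved in the opposite direction by a small and even amount. It was at 408, 469 and 512 CPM in the high cells of young and 444, 409, 319 and 488 CPM in those of aged mice. The low cells had 256, 386 and 399 CPM in young and 344, 286, 186 and 347 CPM in aged mice, so the high cells were above in 7 of 7 mice (log2 fold change 0.34, SE 0.06, adjusted p = 0.0123). Muc13 (-0.23, adjusted p = 0.0879) and Klf4 (-0.46, adjusted p = 0.36) did not pass. No member was called for a difference between young and aged mice in this split (interaction term in edgeR, 1 of 18274 genes called, and Muc2 at an unadjusted p of 0.0396).

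The split also divided the marker lists. Of the 150 Paneth-led cells 130 lay below the median, as did 88 of the 104 enterocyte-led and all 4 goblet-led cells. Of 11 Paneth markers 10 fell in the high cells, with a summed level of 721 to 16639 CPM over the mice against 15449 to 61333 CPM in the low cells, and 8 of 12 enterocyte markers fell (880 to 1664 against 1317 to 5099 CPM). No gene of these lists was at 0. Among ISC-led cells alone, 4 members were called: Fcgbp (-3.02), Tff3 (-2.72), Agr2 (-1.69) and Spink4 (-1.65). Muc2 (-3.06, adjusted p = 0.0808), Clca1 (-1.21, 0.242), Zg16 (-0.12, 0.885) and Muc4 (0.26, 0.0889) lost their calls there. Without young mouse 3, 5 members were called. The share of all genes called was not counted among ISC-led cells or without young mouse 3. Of the wider list 14 of 41 genes fell and 1 rose (Agr3).

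**Figure D4:**
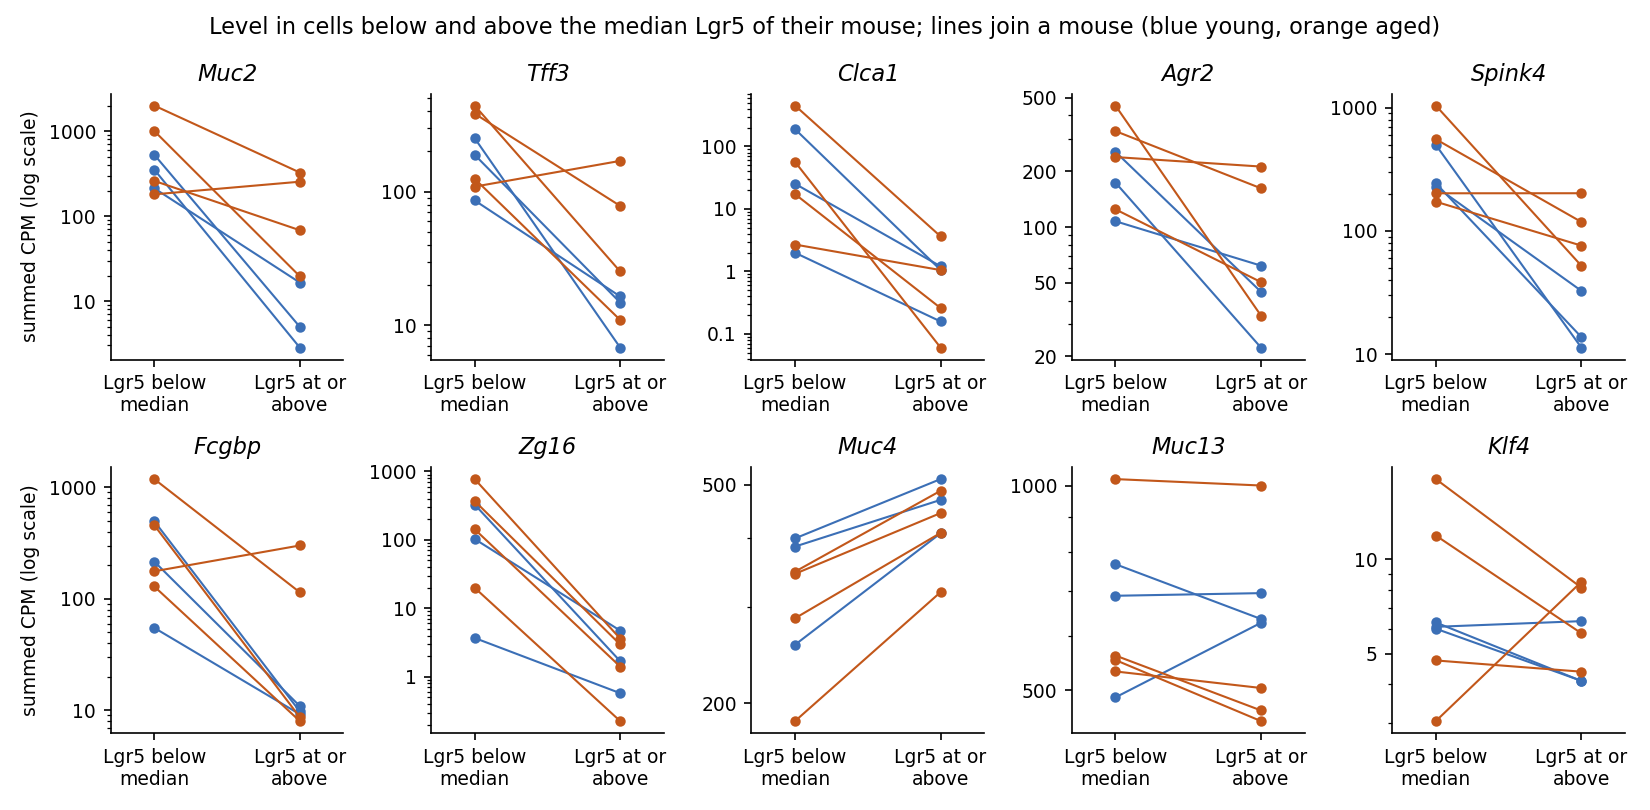
Summed level of each member (CPM, log scale) in the cells of a mouse below its median Lgr5 level and in those at or above it; each line joins the 2 values of a mouse (blue young, orange aged). Clca1, Agr2 and Zg16 fall in 7 of 7 mice, Muc2, Tff3, Fcgbp and Spink4 in 6, and Muc4 rises in 7.

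A split by whether Lgr5 had any read (1779 cells against 57) called none of the 10 members by edgeR, with 5.51% of 16125 genes called. At an unadjusted p under 0.05 it gave 3 members, Muc2 (1.37), Spink4 (1.47) and Muc4 (1.53), each higher in the cells with Lgr5, but the median gene was also higher by 1.00. DESeq2 called no member. The 57 cells without Lgr5 were shallower (median 103974 reads against 309674) and numbered 5, 2 and 2 in young and 6, 4, 13 and 25 in aged mice.

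Age was the comparison the study was designed for, and the summed levels of all 10 members overlapped between young and aged mice. Muc2 was at 218, 111 and 278 CPM in young mice 1 to 3 and at 171, 467, 209 and 1043 CPM in aged mice 1 to 4. Aged mice 2 and 4 lay above all young mice and aged mice 1 and 3 within their range. The mean was 203 ± 84.6 CPM (SD, n = 3) in young and 473 ± 403 CPM (n = 4) in aged mice. The log2 fold change of 1.28 (SE 0.62) did not pass edgeR's quasi-likelihood test (p = 0.0671, adjusted p = 0.977). Leaving out the most extreme cell brought aged mouse 4 to 545 CPM and the log2 fold change to 0.83. In sums over a mouse, more cells that express a gene and more RNA per cell cannot be told apart.

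Fcgbp was at 137, 31.3 and 264 CPM in young and 72.6, 212, 224 and 571 CPM in aged mice, with overlapping groups and a log2 fold change of 0.96 (SE 0.75). Clca1 was at 16.0, 1.04 and 99.2 CPM in young and 9.32, 25.7, 2.06 and 195 CPM in aged mice, so both groups spanned the low and the high values. Its log2 fold change was 0.64 (SE 1.49) and turned to -1.63 without the most extreme cell, which held 93.7% of the Clca1 reads of aged mouse 4. Zg16 was at 65.0, 2.08 and 172 CPM in young and 76.9, 169, 12.4 and 332 CPM in aged mice, with overlapping groups and a log2 fold change of 0.93 (SE 1.20), or 0.10 without that cell.

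The peptides and the folding enzyme were more even. Tff3 was at 156, 49.9 and 105 CPM in young and 71.7, 213, 132 and 208 CPM in aged mice (log2 fold change 0.63, SE 0.45). Agr2 was at 174, 83.9 and 101 CPM in young and 90.1, 223, 228 and 233 CPM in aged mice, where 3 aged mice lay above all young mice and aged mouse 1 did not (0.75, SE 0.37, p = 0.0755 unadjusted in edgeR). Spink4 was at 311, 127 and 134 CPM in young and 128, 500.1, 202 and 305 CPM in aged mice, with only aged mouse 2 above the young range (0.62, SE 0.48).

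Neither surface mucin passed the test by age. Muc4 was at 314, 429 and 453 CPM in young and 391, 353, 236 and 428 CPM in aged mice (log2 fold change -0.12, SE 0.22), and Muc13 at 542, 692 and 705 CPM in young and 1013, 497, 522 and 508 CPM in aged mice (0.03, SE 0.26). Aged mouse 1 stood above all others for Muc13, and the other 3 aged mice lay below all young mice, and without aged mouse 1 the log2 fold change of Muc13 was -0.28. Klf4 was at 6.19, 5.15 and 5.09 CPM in young and 4.58, 12.6, 5.12 and 8.42 CPM in aged mice (0.54, SE 0.38).

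No member was called by age, where 0.00% of 20957 genes were called by edgeR. At an unadjusted p under 0.05 edgeR, DESeq2 and limma voom each gave 0 members, against 5.24% of all genes by edgeR, and DESeq2 called 0 members beside 0.825% of its genes. The count at an unadjusted p under 0.05 rose to 6 members on the mean log2(CPM + 1) of cells. It rose to 2 each without a filter on low counts, on thinned reads, with cells weighted equally and with the sample title code as a block. It was also 2 without young mouse 1 and without aged mouse 1. Over all genes, the adjusted test called 72, 22, 13, 18, 1, 1 and 8 in these fits, in the same order. Their share of all genes at an unadjusted p under 0.05 was not counted. In the block fit young mouse 2, whose cells carry 2 codes, entered as 2 sums. Adjusted p over the members ranged from 0.977 to 1.0 (edgeR). In the summed CPM 0 of 10 members had groups that did not overlap, beside 5.92% of all genes. The estimate was above 0 for 9 of the 10 members, beside 51.7% of all genes tested. The median of the estimates was 0.64 over the 10, 0.75 over the 7 granule genes and 0.01 over all genes tested. Without the most extreme cell Clca1 joined Muc4 on the lower side. Lgr5 was at -0.44 (SE 0.24). The summed level of the Paneth markers was 8488 to 28952 CPM in young and 14719 to 32090 CPM in aged mice, and that of the enterocyte markers 1224 to 1460 and 1170 to 2841 CPM, with no marker of either list at 0. Their part in the members' values was not tested.

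**Figure D5:**
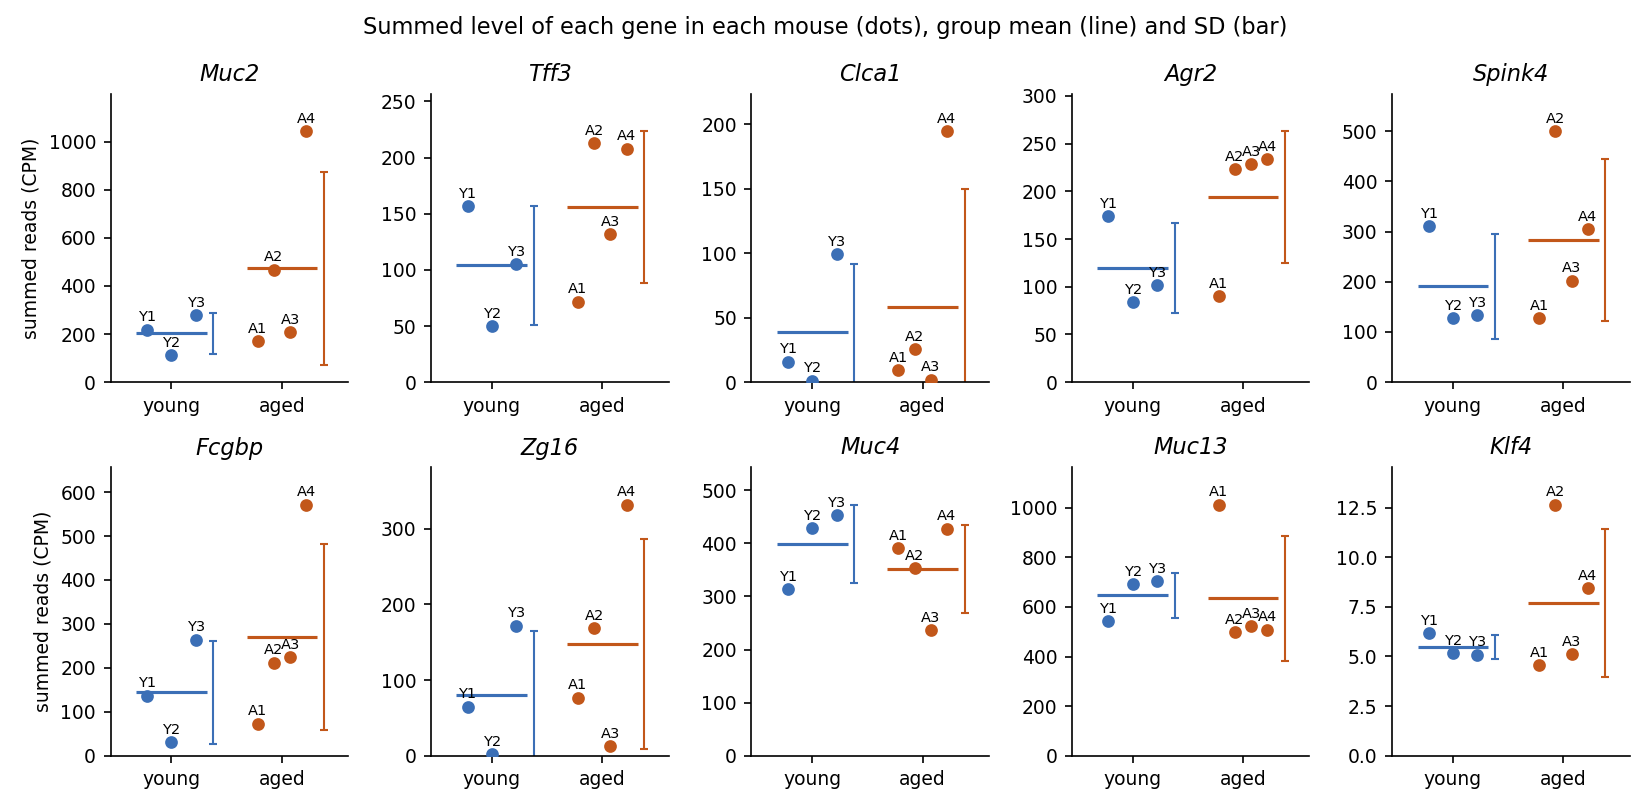
Summed level of each member (CPM, linear axes from 0) in young mice Y1 to Y3 and aged mice A1 to A4; dots are mice, lines group means and bars SD, cut at 0 where they would reach below it. The groups overlap for all 10 members, and aged mouse 4 is highest for Muc2 (1043 CPM), Clca1, Fcgbp and Zg16.

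Counting cells in place of reads removes the weight of extreme cells. The share of cells with Muc2 at 10 CPM was 16.9%, 13.8% and 17.3% in young and 16.9%, 28.5%, 23.8% and 31.7% in aged mice, with aged mouse 1 inside the young range (exact two-sided permutation p = 0.0857). Fcgbp was in 15.0%, 7.03% and 12.2% of cells in young and 12.7%, 29.6%, 21.7% and 29.0% in aged mice (exact p = 0.0857). Agr2 was in 45.6%, 53.8% and 41.8% of cells in young and 52.4%, 64.0%, 52.9% and 62.3% in aged mice (exact p = 0.171). These 3 genes had the largest differences in share, 9.25, 11.8 and 10.8 percentage points, and in each of them the groups overlapped at 10 CPM. At other levels some did not: Agr2 had groups without overlap at 1 CPM (11.3 percentage points, exact p = 0.0286) and on thinned reads (exact p = 0.0571), and Muc2 at 100 CPM (7.74 percentage points, exact p = 0.0857). The share of all genes without overlap was not counted at these other levels.

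Muc4 was the only member whose groups did not overlap in the share at 10 CPM, beside 6.52% of all genes. It reached 10 CPM in 98.8%, 98.1% and 98.7% of cells in young and in 95.8%, 94.6%, 92.6% and 95.9% of cells in aged mice, a difference of -3.79 percentage points. The exact two-sided permutation p was 0.0286, the smallest that 3 against 4 mice allow. At 10 CPM 10 such tests were made, and 10 more at each other setting. At 1 CPM the groups of Muc4 did not overlap either (-3.21 percentage points, exact p = 0.0286). On reads thinned to 100000 per cell the exact p was 0.0571, and among ISC-led cells it was 0.0857, while at 100 CPM the groups overlapped (exact p = 0.114). For the other 6 members the exact p ranged from 0.114 (Spink4) to 0.629 (Muc13).

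The share of cells with at least 4 granule genes was 12.5%, 7.30% and 10.1% in young and 9.52%, 26.3%, 17.5% and 23.5% in aged mice, or 9.97 ± 2.60% (SD, n = 3) and 19.2 ± 7.44% (n = 4). Aged mouse 1 lay below young mice 1 and 3. The difference of 9.24 percentage points was 2.16 among ISC-led cells. Changing the number of genes changed the overlap, since with at least 3 genes the highest young mouse had 17.5% and the lowest aged mouse 18.0%.

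The sample titles carry 5 codes whose meaning no label states. Some were shared by a young and an aged mouse, which allows values within a code. In the code shared by aged mouse 1 and young mouse 2, 9 of 10 members were higher in the aged mouse, and in that of aged mouse 2 and young mouse 2 it was 8. In that of aged mouse 3 and young mouse 1 it was 2, so the direction did not hold in every code. Each of these compares 1 mouse with 1 mouse, and young mouse 3 and aged mouse 4 shared no code with another mouse.

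The wider mucus genes were called by age in 0 of 45 tested (edgeR), with 39 higher in aged mice, 10 at an unadjusted p under 0.05 and a median of 0.39. Over all 20957 genes tested, 51.7% were higher in aged mice, 5.24% had such a p and the median was 0.01. DESeq2 called 3 of them, beside 0.825% of its genes. By list, 9 of 10 fate regulators, 13 of 13 glycosylation genes, 10 of 11 folding and secretion genes and 7 of 11 other mucins and granule genes were higher. The 5 with the lowest p are given with their values. Galnt12, which starts mucin O-glycans, was at 58.7, 63.9 and 38.7 CPM in young and 113, 116, 130 and 129 CPM in aged mice, without overlap (log2 fold change 1.24, SE 0.19, adjusted p = 0.117). Gcnt3, which branches them, was at 13.1, 13.0 and 9.70 CPM in young and 23.0, 25.2, 20.5 and 28.5 CPM in aged mice, without overlap (1.08, SE 0.20, adjusted p = 0.251).

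Guca2a had a log2 fold change of 1.81 (SE 0.47, adjusted p = 0.534), from 36.9 to 64.9 CPM in young and 65.3 to 266 CPM in aged mice. Ern2, the goblet cell form of the IRE1 sensor of unfolded proteins, gave 1.24 (SE 0.35, adjusted p = 0.675) and Atoh1 1.24 (SE 0.44, adjusted p = 0.817). Galnt12, Gcnt3 and Guca2a were the 3 genes called by DESeq2, with adjusted p = 1.81e-05, 0.000299 and 0.0123.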

How the data were processed

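Single-cell libraries were made from Lgr5 high-ISCs of 3 young and 4 aged mice. The deposited table holds raw read counts per gene that the authors made; the submitters' processing notes name HISAT2, HTSeq and build GRCm38, while the counting annotation and its strand setting were stated in no source used here. All 1920 columns were matched to samples by title. No 2 columns were identical. Cells entered when 1000 or more genes were detected. Counts were summed per mouse, or per mouse and class of cells, and tested with edgeR 4.0.16 (quasi-likelihood, TMM, filterByExpr, Benjamini-Hochberg over all genes, threshold 0.05); DESeq2 1.42.0 and limma 3.58.1 in R 4.3.3 were alternatives. Sums by leading marker list needed at least 5 cells, while the split by any Lgr5 read used all sums, down to 2 cells. P-values measure the spread between mice. Shares of cells were compared with exact permutation tests over all 35 divisions of the 7 mice (numpy 2.4.6). The fits were tested on simulated data. Exon lengths came from the GENCODE M21 annotation. Reads without molecular identifiers are not independent molecules.

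The members, marker lists and the list of 51 wider genes were chosen with earlier results of these data known. All members were named; of the wider list, genes under the adjusted threshold by age were to be named, otherwise the 5 with the lowest p; likeness was ranked by Pearson correlation averaged over 7 mice. The values of Agr3, Spdef, Foxa2, Foxa3, Capn9, Tpsg1, Xbp1, Stxbp2, Vamp8 and Reg4 were named after they had been seen.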

Additional observations from a re-analysis of the deposited data

Results flagged for a closer look

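Among 21 sets of values examined, all from the same 4 aged mice, 3 had a mouse far from the others by Dixon's ratio. For normally distributed values chance alone flags about 1 set in 20. These sets share their mice and are not independent, and their distribution was not tested. Clca1 was at 195 CPM in aged mouse 4 against 2.06 to 25.7 CPM in the other aged mice, and without its top cell this mouse was at 12.2 CPM. Agr2 was at 90.1 CPM in aged mouse 1 against 223 to 233 CPM in the others. Muc13 was at 1013 CPM in aged mouse 1 against 497 to 522 CPM in the others.

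The difference between cells with and without a read of Lgr5 itself differed between aged and young mice for Clca1 (interaction, edgeR, adjusted p = 0.0401) and Zg16 (adjusted p = 0.00303), the 2 genes called among 16125. Cells without Lgr5 held 0 reads of Clca1 in each young mouse and 16, 0, 80 and 24583 in aged mice 1 to 4. Zg16 had 1, 0 and 1 reads in the young and 365, 0, 688 and 37700 in the aged mice. In aged mouse 4 a single cell held 23976 of these Clca1 reads and 33410 of the Zg16 reads. With that cell left out, an alternative added after seeing the data, neither gene was called (adjusted p = 1.0 and 0.19). On the log2 scale the estimates were -16.93 with and -16.48 without the cell for Clca1, and -9.65 and -9.04 for Zg16. With 0 Clca1 reads in the young cells without Lgr5, the size of its estimate is not a measured fold. That of Zg16 rests on 1, 0 and 1 reads there. The part of this cell in the difference was not tested.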

How the results depend on the processing

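Of 98 alternative counts of calls 90 equalled or stayed within 1.5 times the reported count and 8 did not. Many of the 90 were counts of 0 against 0. These were 20 for members by age, 15 for wider genes by age and 12 for any Lgr5 read. Of 768 alternatives for single values 698 kept direction and call, 28 lost and 23 gained a call and 16 turned their sign. A further 3, of values without a test, moved. No member was called by age in any of 20 alternatives run. By age, Clca1 turned to -0.72 with the replicate number as a block, to -1.63 without the cell with most granule reads, and ranged from -1.64 (without aged mouse 4) to 2.84 when single mice were left out. Muc4 ranged from -0.25 to 0.031 (without aged mouse 3). Muc13 turned to -0.037 (limma voom), -0.13 (cells weighted equally), -0.0063 (ISC-led cells) and -0.19 (mean of log values), and ranged from -0.28 to 0.13 when mice were left out. The cause of these turns was not tested. The replicate numbers did not pair the mice (correlation of same-numbered mice -0.11, 0.18 and -0.22), and the block called 0 members.

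The wider genes called by age were 3 with DESeq2, 1 without a filter on low counts (Galnt12) and 1 on thinned reads (Galnt12). Over all genes, 205 were called with DESeq2, 22 without the filter and 13 on thinned reads. Members called between cells with and without Lgr5 reads were 1 on thinned reads (Zg16) and 8 with the split at the median, where Muc2 turned to -4.03 and Spink4 to -3.03. At the median split, 4 members were called among ISC-led cells and 5 to 8 when single mice were left out. Muc4 with at least 4 granule genes turned to 0.11 among ISC-led cells, where 17 wider genes were called. The share of all genes called was not counted for these alternative splits of cells. In shares of cells, aged minus young, Clca1 turned to -0.27 and Zg16 to -1.27 percentage points among ISC-led cells and Muc13 to 0.33 on thinned reads.

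Reads of Clca1 and Zg16 sit in few cells, and 3 against 4 mice cannot give an exact p below 0.0286. Thinning to 100000 reads left out 104 cells. The planned contrast of goblet-led with ISC-led cells was not run, since 4 cells were led by goblet markers.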
